A study of Rattus norvegicus with 14 samples.

Results

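Phosphatidylinositol 3-kinase (PI3 kinase), Akt and mTOR genes were followed in cultured rat hippocampal neurons and astrocytes given the neurosteroid allopregnanolone (Allo) or its vehicle. The 8 genes were taken by symbol, and all 8 were listed and tested in both cultures, among 18239 genes listed for neurons and 31791 for astrocytes. They were Pik3ca, Pik3cb and Pik3cd (catalytic subunits), Pik3r1 and Pik3r3 (regulatory subunits), Akt1 and Akt2 (kinases) and Mtor (kinase). Of these, Pik3cd and Pik3r1 had been placed by the study in its pathway lists using the same neuron libraries. Neither their direction nor their passing a threshold in those libraries is therefore independent evidence.

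Class I PI3 kinases are heterodimers of a catalytic and a regulatory subunit, and they are recruited to activated receptors through the regulatory subunit. Their lipid product brings Akt to the membrane, where it is phosphorylated. Akt restrains the TSC complex, an inhibitor of the small GTPase Rheb, and Rheb activates mTOR complex 1, which promotes protein synthesis and suppresses autophagy. In neurons the pathway is known for its part in survival, dendrite growth and synaptic plasticity. These steps run mostly through phosphorylation, which mRNA levels do not measure.

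Both cultures came from Sprague Dawley rat embryos at embryonic day 18. Neurons were held at day 10 for 4 h in a medium with less B27 supplement (AM), then for 16 h with 100 nM Allo (AM-Allo, 4 libraries) or 0.001% ethanol (AM-Veh, 4 libraries). Astrocytes were held for 24 h in AM, here a medium with charcoal-stripped serum, then for 24 h with 100 nM Allo (3 libraries) or vehicle (3 libraries). Each neuron library carries a number in 2 parts, 1-1, 1-2, 2-1 or 2-2, in both groups. What the first number stands for is not stated, nor whether libraries came from separate cultures, so p-values measure the spread between these libraries, which may be technical.

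From the value of 1 read, depth was estimated at 19500000 to 25200000 reads for the neuron libraries and at 22200000 to 27800000 for those of astrocytes. The neuron cultures held glial transcripts: 9 astrocyte markers summed to 198968 to 258956 normalized counts, with the neuronal markers at 42722 to 50647. In a mixed culture, fewer cells of a type and less RNA per cell cannot be told apart. The astrocyte marker sum did not overlap between first numbers, at 198968 to 210910 for number 1 and 236144 to 258956 for number 2. Between treatments, 5 of 9 neuronal markers tested passed an unadjusted p of 0.05 (Map2, Tubb3 and Slc17a7 higher, Gad2 and Nefl lower in AM-Allo), as did 1 of 9 of the oligodendrocyte lineage (Cnp, higher), 0 of 9 of astrocytes and 0 of 3 of microglia. In astrocyte cultures 2 of 9 astrocyte (Slc1a2 and S100b), 1 of 4 neuronal (Map2) and 1 of 12 microglial markers (Cx3cr1) passed, all lower in AM-Allo. Their part in the members' values was not tested. The cultures were normalized separately, so levels are not set against each other across them, and levels are not compared between genes because values per transcript length were not used here.

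In neurons, Pik3cd and Pik3r1 were the members that rose with Allo at the study's threshold, an unadjusted p of 0.05. That is 2 of 8 members, both higher, where 5.69% of the 15314 genes tested passed in either direction and 3.21% passed as higher. No member passed after adjustment over all genes, which 0.0261% of genes did. AM-Allo lay above AM-Veh in every library for the same 2 members, against 2.06% of genes. The study had already listed these 2 as significantly changed from the same libraries, so neither count of 2 is read as an excess over all genes. The other 6 members did not pass. The members' median difference was 0.042 on the log2 scale, and that of all genes was -0.0015.

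Pik3cd encodes the delta catalytic subunit, best known from leukocytes. Its normalized counts were 178, 158, 193 and 162 in AM-Veh libraries 1-1, 1-2, 2-1 and 2-2. They were 200.1, 200.1, 244 and 286 in the AM-Allo libraries of the same numbers. The lowest treated library stood above the highest vehicle library, and the 2 libraries with first number 2 were the highest. The mean went from 173 ± 16.4 to 233 ± 41.2 (SD, n = 4 each), a ratio of 1.35. The log2 difference was 0.42 (SE 0.13, 95% interval 0.14 to 0.69), with limma's unadjusted p = 0.00738 and adjusted p = 0.650. These values rest on an estimated 159 to 269 reads per library, for which counting error alone gives an SD of 0.10 on the log2 scale. Within library pairs of the same number, the log2 difference was 0.17, 0.34, 0.33 and 0.82. Without overlap between the groups, any pairing gives 4 of 4 pairs higher with Allo.

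**Figure D1:**
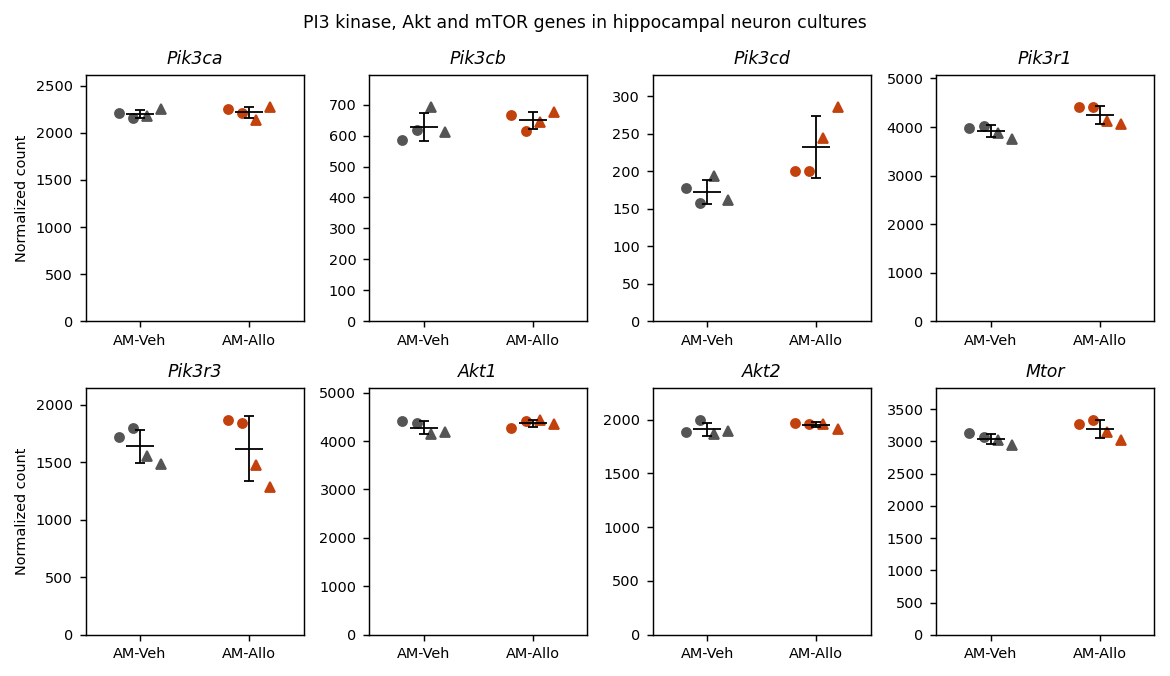
Normalized counts (y axis, from 0) of the 8 genes in AM-Veh (grey) and AM-Allo (orange) neuron libraries, with circles for first number 1, triangles for first number 2, and bars for mean ± SD (n = 4 each). In Pik3cd and Pik3r1 every AM-Allo library lies above every AM-Veh library, and in Pik3r3 the libraries separate by first number.

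Markers of microglia, cells known to express Pik3cd, were low in the neuron cultures. Of 12 such markers, 8 were listed and 3 passed the filter on low values. Their sum was 120 to 183 normalized counts under AM-Veh and 110 to 170 in AM-Allo, so it overlapped between treatments, and none was at 0 in every library. Most of it was Cd68, which averaged 108 in AM-Veh and 95.8 in AM-Allo. Tmem119 averaged 17.2 and 17.8, Csf1r 3.58 and 8.79, and Cx3cr1 2.02 and 2.30. The sum was 110 to 136 in libraries of first number 1 and 167 to 183 in those of first number 2. Pik3cd averaged 168 and 177 normalized counts in these numbers under AM-Veh, and 200 and 265 in AM-Allo. The part of the microglial sum in the Pik3cd values was not tested.

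Pik3r1 encodes the main regulatory subunits, which stabilise the catalytic subunit and bind phosphorylated receptors and adaptors. Its normalized counts were 3991, 4022, 3886 and 3748 in AM-Veh and 4418, 4416, 4131 and 4067 in AM-Allo, in the same order of libraries. The groups did not overlap, and libraries of first number 1 were the higher ones within each group. The mean rose from 3912 ± 124 to 4258 ± 186 (SD, n = 4 each), a ratio of 1.09. Its log2 difference was 0.12 (SE 0.039, 95% interval 0.036 to 0.21, unadjusted p = 0.00976, adjusted p = 0.661). Within the 4 pairs the difference was between 0.09 and 0.15, and without overlap each must be above 0.

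Because neuron libraries of the same first number varied together, the comparison was also fitted with the first number as a block, which removes the difference between numbers 1 and 2. With the block 11.0% of genes passed unadjusted and 0.679% passed after adjustment. Pik3r1 then passed after adjustment (limma, adjusted p = 0.0403), and Pik3cd did not (unadjusted p = 0.000838, adjusted p = 0.0881). With the whole number as the block neither passed after adjustment, at adjusted p = 0.0657 for Pik3r1 and 0.126 for Pik3cd. In the fit with the first number as the block, Mtor joined Pik3r1 and Pik3cd at an unadjusted p of 0.0246 (adjusted p = 0.369), for 3 of 8 members. That call of Mtor was lost without AM-Veh 1-2 (unadjusted p = 0.0773), AM-Allo 1-2 (0.0771) or AM-Allo 2-1 (0.0641), which leaves 2 of 8. The adjusted call of Pik3r1 was lost when any 1 library was left out of the blocked fit, at adjusted p = 0.0580 to 0.127, while its unadjusted p stayed at 0.000195 to 0.00135. For Pik3cd the same fits gave adjusted p = 0.0325 to 0.317. The blocked fits with 1 library left out were added after the data were seen.

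Mtor encodes the kinase at the core of both mTOR complexes. It had 3133, 3077, 3023 and 2950 normalized counts under AM-Veh and 3279, 3333, 3152 and 3019 in AM-Allo. The groups overlapped through AM-Allo library 2-2, although AM-Allo was the higher in 4 of 4 pairs. The log2 difference was 0.069 (SE 0.038), and without the block it missed the threshold (unadjusted p = 0.0990). Leaving out 1 library gave 0.048 to 0.096 at unadjusted p = 0.0254 to 0.252, and it passed only without AM-Allo 2-2.

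The regions just before the start of the 3 genes that passed in the blocked fit are shown because each was higher with Allo in that fit. They are the 250 bases before 1 RefSeq start per gene in the GRCr8 assembly, not the build of the expression values, and were found for 7 of 8 members. Pik3cd lies at chr5:165403969-165404218, Pik3r1 at chr2:34697661-34697910 (both on the minus strand) and Mtor at chr5:164167735-164167984 (plus strand). Each is written 5′ to 3′ on the gene's strand, and capitals mark the GC box GGGCGG or its reverse complement.
Pik3cd: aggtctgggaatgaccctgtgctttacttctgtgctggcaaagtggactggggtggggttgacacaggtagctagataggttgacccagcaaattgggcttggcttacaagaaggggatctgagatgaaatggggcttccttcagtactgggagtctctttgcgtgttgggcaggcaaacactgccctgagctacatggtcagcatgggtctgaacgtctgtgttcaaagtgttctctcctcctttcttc
Pik3r1: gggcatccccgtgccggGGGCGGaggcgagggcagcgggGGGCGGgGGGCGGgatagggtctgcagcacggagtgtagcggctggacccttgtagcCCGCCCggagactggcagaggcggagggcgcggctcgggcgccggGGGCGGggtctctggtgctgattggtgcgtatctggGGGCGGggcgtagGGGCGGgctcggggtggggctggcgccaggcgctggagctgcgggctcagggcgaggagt
Mtor: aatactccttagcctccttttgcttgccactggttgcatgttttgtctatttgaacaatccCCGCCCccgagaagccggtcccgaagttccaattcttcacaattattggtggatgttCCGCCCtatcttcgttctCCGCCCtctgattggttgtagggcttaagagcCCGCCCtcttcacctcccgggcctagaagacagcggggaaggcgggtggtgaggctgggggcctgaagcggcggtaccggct
On both strands, Pik3r1 held 7 GC boxes, Mtor 4 and Pik3cd 0, with no overlap between matches. Of 33469 such regions, 30.5% held at least 1. The GC content was 77.2% in Pik3r1, 56.8% in Mtor and 51.6% in Pik3cd, beside a median of 51.2% in all regions. The cAMP response element TGACGTCA (1.59% of regions), its part TGACG (18.2%) and the E-box CACGTG (5.59%) were in none of these 3. Among members that did not pass in neurons, TGACG was in the windows of Pik3ca and Pik3r3 and not in those of Akt1 and Akt2. The windows of Pik3cd, Pik3ca, Pik3r3, Akt1 and Akt2 lie inside the annotated spans of their genes. Transcripts with an earlier start therefore exist for each. These matches describe letters in the windows only.

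The other catalytic subunits, Pik3ca (alpha) and Pik3cb (beta), are the widely expressed ones. Pik3ca ranged from 2154 to 2248 normalized counts under AM-Veh and from 2140 to 2277 in AM-Allo neurons, and its log2 difference was 0.013 (95% interval -0.059 to 0.086, unadjusted p = 0.688). Pik3cb ranged from 587 to 693 and from 614 to 675, with a difference of 0.052 (-0.081 to 0.18, unadjusted p = 0.409). Neither passed, and the groups overlapped in both. Pik3cg, the gamma subunit, averaged 0.669 normalized counts under AM-Veh and 1.76 in AM-Allo neurons, and was not tested.

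**Figure D2:**
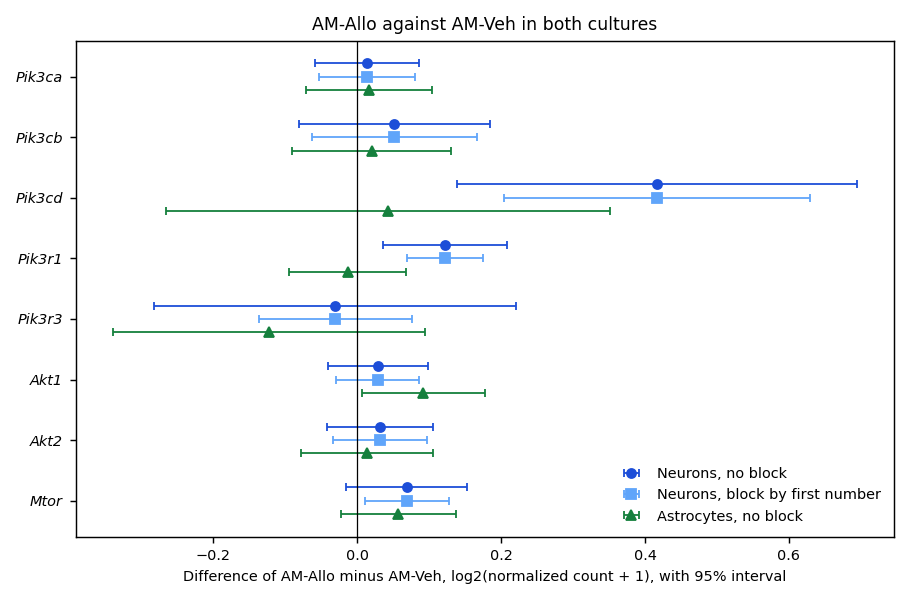
Log2 difference of AM-Allo minus AM-Veh (x axis) with its 95% interval for the 8 genes, in neurons without and with the first number as a block and in astrocytes. The interval of Pik3cd lies above 0 in neurons (0.14 to 0.69) and spans 0 in astrocytes (-0.27 to 0.35).

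To ask whether Pik3cd moved differently from the other catalytic subunits, the log2 difference between them was taken within each library. In neurons Pik3cd minus Pik3ca went from -3.67 ± 0.14 in AM-Veh to -3.26 ± 0.25 in AM-Allo (SD, n = 4 each). Every AM-Allo library lay above every AM-Veh library, although the nearest ones, at -3.49 each, were close. The change of 0.40 had a 2-sided exact permutation p of 0.0286, the smallest that 4 against 4 libraries allow. Relative to Pik3cb the change was 0.36 (exact permutation p = 0.0571), and the groups overlapped. After adjustment over the 4 tests run in both cultures, each neuron p was 0.114 in these exact permutation tests, and neither passed. The absolute values of such differences carry the genes' lengths and are not read here.

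**Figure D3:**
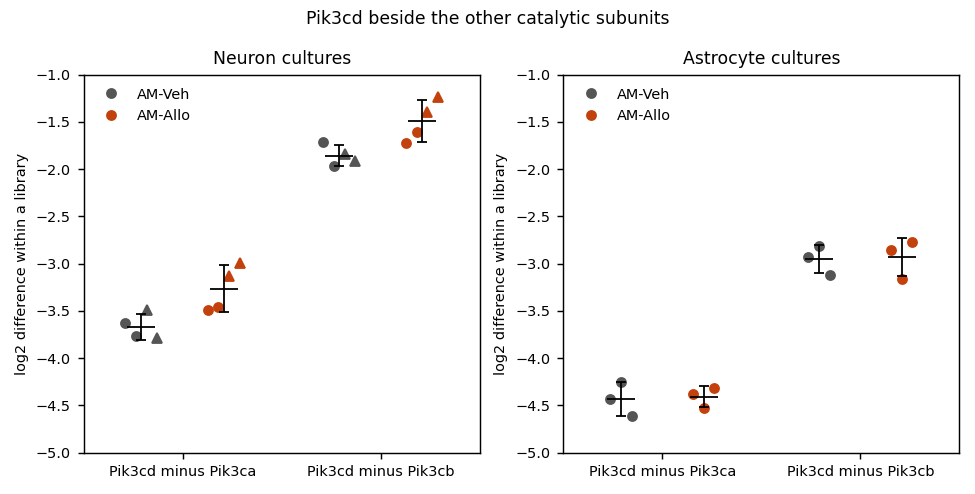
Within-library log2 difference of Pik3cd minus Pik3ca and Pik3cd minus Pik3cb (y axis) in AM-Veh (grey) and AM-Allo (orange) libraries, with bars for mean ± SD and triangles for neuron libraries of first number 2. The neuron groups shift by 0.40 and 0.36, and the astrocyte groups by 0.027 and 0.023.

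Pik3r3 encodes another regulatory subunit. Its normalized counts were 1719, 1795, 1551 and 1481 in AM-Veh and 1866, 1839, 1475 and 1286 in AM-Allo neurons. Number 1 libraries were higher and number 2 libraries lower with Allo, and the ranges overlapped. The log2 difference over all libraries was -0.031 (SE 0.11, unadjusted p = 0.793). It was 0.077 in number 1 and -0.14 in number 2. The test of the difference between numbers gave -0.21 (limma interaction, unadjusted p = 0.0202, adjusted p = 0.411). Pik3r3 was the 1 member of 8 past that unadjusted threshold, where 9.53% of genes were. For Pik3cd the Allo difference was 0.26 in number 1 and 0.58 in number 2, and the difference between numbers did not pass (0.32, unadjusted p = 0.102).

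The first number itself went with the level of 2 members after adjustment, where 17.2% of genes differed. Pik3r3 was lower in number 2 by a log2 difference of -0.32 (adjusted p = 0.000362) and Pik3r1 by -0.089 (adjusted p = 0.0226). Pik3cd was 0.24 higher, which did not pass after adjustment (adjusted p = 0.121). Of 7 marker sums, 6 did not overlap between first numbers. Astrocyte, microglial and endothelial sums were higher in number 2. Lower in number 2 were those of the oligodendrocyte lineage (52475 to 54436, against 56441 to 60483 in number 1), mesenchymal cells (666 to 791, against 1006 to 2688) and proliferation (1895 to 2084, against 2567 to 2920). Their part in these levels was not tested.

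Akt1 and Akt2 encode kinases recruited by the PI3 kinase product. In neurons Akt1 had 4409, 4370, 4151 and 4182 normalized counts under AM-Veh and 4260, 4412, 4433 and 4342 in AM-Allo, a log2 difference of 0.028 (SE 0.031, unadjusted p = 0.389). Akt2 ranged from 1865 to 1995 and from 1914 to 1966 (0.032, SE 0.033, unadjusted p = 0.360). The groups overlapped in both. The regulatory subunit gene Pik3r2 differed by 0.046 (unadjusted p = 0.359).

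In neurons, the genes with the profile most like that of Pik3cd over the 8 libraries were Runx1t1 (a transcriptional corepressor), Psd3 and Necab1. Likeness was the root mean square difference between log2 profiles centred on their means, and it was 0.084, 0.086 and 0.087, where Pik3cd varied by 0.27 about its own mean. For Pik3r1 they were Uvrag (an autophagy protein), Acaca (acetyl-CoA carboxylase) and Fbxl17, at 0.018, 0.022 and 0.024, against its own 0.077.

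Around the members, 107 other genes of the pathway were listed by role, of which 98 were tested in each culture. In neurons 7 of the 98 (7.14%) passed unadjusted, 5 higher and 2 lower, against 5.69% of all genes, and the list's median was 0.017. With the block 12 passed (12.2%), 8 higher and 4 lower, against 11.0% of all genes. Those shares are near the background.

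Of the receptors and adaptors, 2 of 11 passed. Grb10, an adaptor that binds the insulin receptor and is a substrate of mTOR complex 1, rose from 985 ± 15.3 to 1110.5 ± 20.7 normalized counts (SD, n = 4 each; log2 difference 0.17, unadjusted p = 0.000554, adjusted p = 0.353). Irs2, an insulin receptor substrate that recruits PI3 kinase, rose from 3231 to 3449 (0.094, unadjusted p = 0.00616). The groups did not overlap in either gene. Among 9 lipid and protein phosphatases, Inpp4a, which acts on a product of PI3 kinase, rose by 0.17 (unadjusted p = 0.00381). With the block Grb10 (adjusted p = 0.0447) and Inpp4a (adjusted p = 0.0484) passed after adjustment, and with the whole number as the block neither did (adjusted p = 0.0778 and 0.0708).

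Downstream, Foxo6, a FOXO transcription factor, was the 1 of 12 Akt activators and substrates to pass, and it fell from 542 ± 33.6 to 452 ± 51.0 (-0.27, unadjusted p = 0.00769). Its AM-Allo library 2-2, at 526, lay within the AM-Veh range. In the group of TSC and Rheb, 2 of 12 passed in opposite directions. Tsc1, a subunit of the complex that inhibits Rheb, rose from 898 to 984 (0.13, unadjusted p = 0.0102), and Rheb fell from 3030 to 2857 (-0.085, unadjusted p = 0.0110), each without overlap. Ulk2, an autophagy kinase and the 1 of 15 mTOR complex 1 outputs to pass, rose by 0.084 at unadjusted p = 0.0496, and it missed the threshold in 10 of 20 alternative fits (unadjusted p = 0.0802 without trend in the variance). None of the 10 other subunits of the mTOR complexes, 20 amino acid sensing genes, 5 class II and III PI3 kinases or 4 other class I and Akt genes tested passed.

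The 5 genes that the block added were named after their values were seen. They were Rictor of mTOR complex 2 (0.14, unadjusted p = 0.0488), the AMPK subunit gene Prkab2 (0.11, unadjusted p = 0.0318), the stress-induced Sesn1 (0.11, unadjusted p = 0.0407), the growth factor Igf1 (-0.22, unadjusted p = 0.0408) and the phosphatase subunit gene Ppp2r2b (-0.067, unadjusted p = 0.0459).

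**Figure D4:**
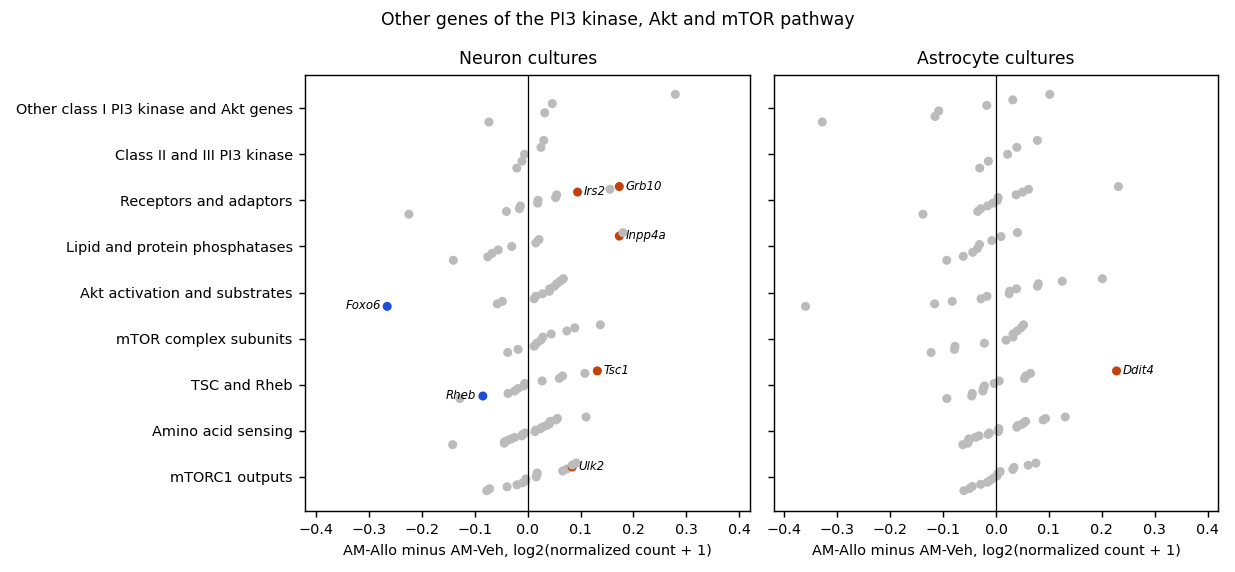
Log2 difference of AM-Allo minus AM-Veh (x axis) of 98 other pathway genes per culture, by role (y axis), with 1 point a gene. Coloured points passed an unadjusted p of 0.05 (orange higher, blue lower), 7 in neurons and 1 in astrocytes, and grey points did not.

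In astrocytes 1 of 8 members, Akt1, passed unadjusted, where 7.01% of 15380 genes passed in either direction and 3.72% as higher. None passed after adjustment, which 0.00650% of genes did. Akt1 had 3996, 4284 and 4348 normalized counts under AM-Veh and 4394, 4481 and 4574 in AM-Allo. The treated libraries were the higher ones without overlap, with AM-Veh 1 the lowest. The log2 difference was 0.092 (SE 0.040, 95% interval 0.0063 to 0.18, unadjusted p = 0.0372, adjusted p = 0.691). The call did not hold without AM-Veh 1 (0.055, unadjusted p = 0.184), without AM-Allo 2 (unadjusted p = 0.0589), without AM-Allo 3 (unadjusted p = 0.103), under upper-quartile scaling (unadjusted p = 0.0694), under quantile normalization (0.0503) or without trend (0.118).

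Mtor was the other of 2 members with AM-Allo above AM-Veh in every astrocyte library, against 6.42% of genes. Its normalized counts were 2458, 2544 and 2470 in AM-Veh and 2627, 2553 and 2591 in AM-Allo. The nearest libraries of the groups differed by less than 10 normalized counts. The log2 difference of 0.057 (SE 0.037) did not pass (unadjusted p = 0.150).

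Pik3cd in astrocytes had 117, 125 and 101 normalized counts under AM-Veh and 121, 104 and 128 in AM-Allo. The groups overlapped throughout. Its log2 difference was 0.043 (SE 0.14, 95% interval -0.27 to 0.35, unadjusted p = 0.770). Relative to Pik3ca the change was 0.027 (exact permutation p = 0.900, adjusted over the 4 tests 0.900) and relative to Pik3cb 0.023 (exact permutation p = 0.800, adjusted 0.900), where 3 against 3 libraries cannot go below 0.1. The neuron and astrocyte differences were not tested against each other, since the treatment times and the normalization differed.

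Microglial markers were readily counted in the astrocyte cultures. The 12 markers summed to 1906 to 2430 normalized counts under AM-Veh and 1972 to 2152 in AM-Allo. Sums of other markers under AM-Veh were 67697 to 80940 for 7 mesenchymal, 6534 to 6716 for 9 oligodendrocyte lineage and 5482 to 6038 for 9 neuronal markers. The gamma subunit gene Pik3cg, known from leukocytes, had 252, 372 and 272 normalized counts under AM-Veh and 285, 240 and 293 in AM-Allo (-0.12, unadjusted p = 0.406). The groups overlapped, and AM-Veh 2 was the highest library.

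The remaining members did not pass in astrocytes. Pik3r1 ranged from 5401 to 5652 in AM-Veh and from 5223 to 5598 in AM-Allo (-0.013, 95% interval -0.094 to 0.068, unadjusted p = 0.730). Pik3r3 ranged from 252 to 284 and from 220 to 267 (-0.12, interval -0.34 to 0.095, unadjusted p = 0.244). The differences were 0.016 for Pik3ca (unadjusted p = 0.699), 0.020 for Pik3cb (unadjusted p = 0.704) and 0.013 for Akt2 (unadjusted p = 0.758). Pik3r2 differed by 0.032 (unadjusted p = 0.436).

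**Figure D5:**
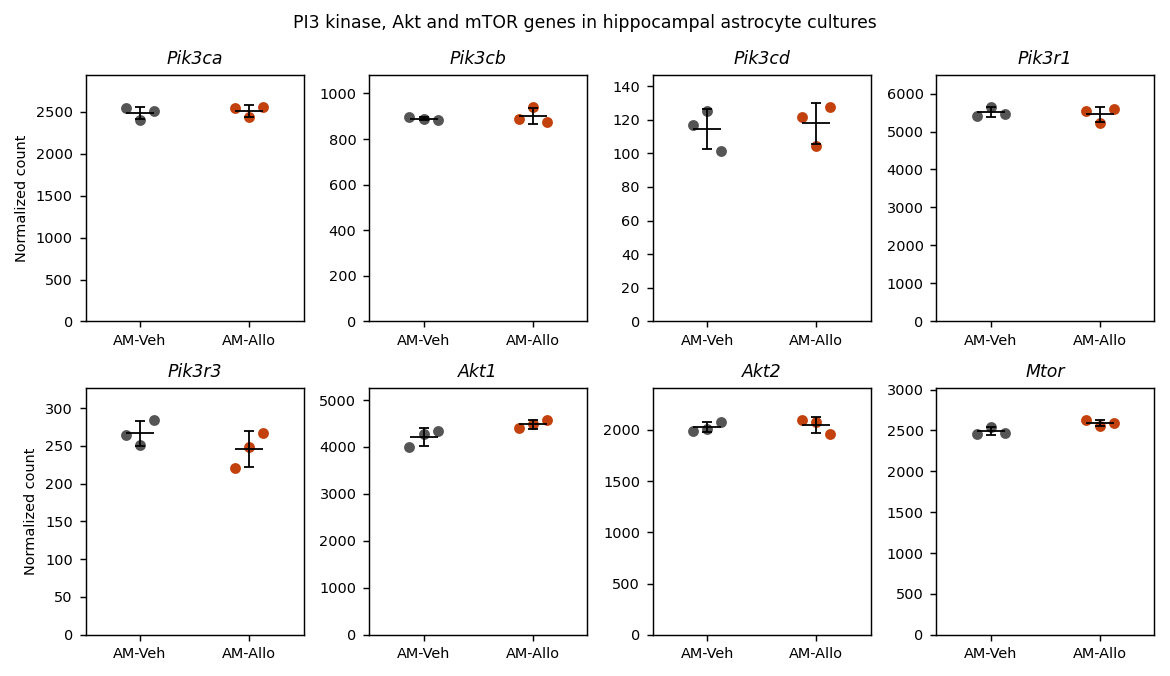
Normalized counts (y axis, from 0) of the 8 genes in AM-Veh (grey) and AM-Allo (orange) astrocyte libraries, with bars for mean ± SD (n = 3 each). Akt1 and Mtor have every AM-Allo library above every AM-Veh library, and Pik3cd overlaps throughout (101 to 125 against 104 to 128).

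Of the 98 other pathway genes tested in astrocytes, 1 (1.02%) passed unadjusted, against 7.01% of all genes, and the list's median was -0.00069. It was Ddit4, a stress-induced inhibitor of mTOR complex 1. Its normalized counts were 685, 745 and 690 in AM-Veh and 825, 823 and 834 in AM-Allo. The 3 treated libraries lay close together above the vehicle libraries, and Ddit4 rose by 0.23 (SE 0.056, unadjusted p = 0.00125, adjusted p = 0.322). In neurons Ddit4 differed by -0.018 (unadjusted p = 0.819). None of the 7 neuron calls among the other pathway genes passed in astrocytes, where 7.01% of all genes did. That count is not read as a difference between cultures, which was not tested.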

How the data were processed

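RNA was measured in 8 neuron and 6 astrocyte libraries, grouped by the cell type, treatment and number in their labels. The authors made stranded poly(A) libraries, read as 150 bp paired ends, quantified them with Salmon 0.14 on Ensembl release 95, summed transcripts to genes with tximport and normalized with DESeq2 1.18.1. The deposited values are this normalized signal, counts per gene after division by normalization factors, and variance-stabilized (VST) values, which the authors deposited as a log2 scale that is compressed at low counts. All sample columns were mapped, with 0 left unused. Some symbols had been turned into dates (21 and 24).

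The signal was taken to log2 after adding 1, and genes with a mean of at least 10 were tested with limma 3.58.1 (R 4.3.3, eBayes with trend) within each culture, with Benjamini-Hochberg adjustment over all genes tested. Depth was estimated from the commonest lowest value of a library, 0.871 to 1.15 in neurons and 0.862 to 1.07 in astrocytes; intervals from depth cover counting error only. Within-library differences used 2-sided exact permutation tests (scipy 1.17.1). The limma step was tested on simulated data with independent libraries and larger changes than those of the members. That test does not show how differences of the members' size, or differences between first numbers, are handled.

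Deviations of neuron libraries with the same number from their group means correlated at 0.23 to 0.30 over genes, those sharing the first number alone at 0.19 to 0.24, and those with different first numbers at -0.32 to -0.15. Deviations within a group cancel for each gene, so the negative correlations follow in part from the positive ones. The numbers were taken as pairs from the data, not from a stated shared culture or day. In astrocytes the same-number correlations were -0.0070 to 0.024, and the numbers were not taken as pairs. In the neuron VST table the mean of each gene was equal for both first numbers (largest difference 7.5e-09, where the median difference in log2 normalized counts was 0.088), so that difference had been taken out of those values.

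Genes, lists and motifs were chosen with earlier results of these data known. The text names the 8 members, Pik3cg and Pik3r2, pathway genes with the smallest unadjusted p (up to 5 higher and 5 lower per culture), and the 3 genes with the profile nearest to Pik3cd and to Pik3r1; 1 further gene of the rule is not reported here. Promoter sequences are from RefSeq (GRCr8). Alternatives were other pseudocounts, filters, scalings and variance models, VST values, replicate blocks and leaving out each library.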

Additional observations from a re-analysis of the deposited data

Results flagged for a closer look

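In neurons the Allo difference of Pik3r3 passed an unadjusted test between first numbers, as did 9.53% of all genes. First number 2 minus first number 1 was -0.21 on the log2 scale (limma interaction, unadjusted p = 0.0202, adjusted p = 0.411; unadjusted p = 0.0931 without trend in the variance), with 2 of 2 pairs higher in number 1 and 2 of 2 lower in number 2.

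Akt2 in AM-Allo neuron library 2-2, at 1914 normalized counts, lay apart from the other AM-Allo libraries (1961 to 1966), the gap being 0.903 of the group's range. Of 16 groups examined this way, 1 was singled out, and chance gives about 1 in 20. This library was still within the AM-Veh range of 1865 to 1995.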

How the results depend on the processing

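In neurons Pik3cd and Pik3r1 kept their direction and an unadjusted p under 0.05 in each of 28 alternative fits. Of these fits, 9 were added after the data were seen. Leaving out 1 library gave log2 differences of 0.31 to 0.48 for Pik3cd and 0.10 to 0.14 for Pik3r1. With VST values, compressed at low counts, the Pik3cd difference was 0.16 in place of 0.42. With 1 library left out, the change of Pik3cd relative to Pik3ca in log2 normalized counts was 0.31 to 0.48. Its exact permutation p was 0.0571 throughout, the smallest that 3 against 4 libraries allow. Members that passed numbered 2 to 3. Neuron pathway genes that passed numbered 7, with 6 in the fit without a low-value filter and 8 at a minimum mean of 50. With 1 library left out they numbered 6 to 9. This count was 16 with VST values and 11 with a replicate block by whole number. It was 12 by first number and 11 with VST values and that block, the last chosen after seeing the data. All neuron genes passing went from 872 to 2204, 1634, 1684 and 1694 in these fits, and after adjustment from 4 to 158, 93, 104 and 105, or to 0 without trend and to between 0 and 4 with 1 library left out (0 without AM-Veh 1-1, 1-2 or 2-1 or AM-Allo 1-1). The VST fit without the block overstates its degrees of freedom, since the first-number difference had been removed. Members past the test between first numbers numbered 1, but 0 without trend (Pik3r3, unadjusted p = 0.0931) and 2 under quantile normalization (with Akt1, unadjusted p = 0.0372). The neuron Pik3r3 difference ran from -0.11 to 0.074 with 1 library left out.

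In astrocytes the 1 member that passed fell to 0 without trend, under upper-quartile scaling and under quantile normalization, and to between 0 and 1 with 1 library left out. Pathway genes that passed went from 1 to 2 under robust variances, 3 under upper-quartile scaling and 2 with VST values, and 1 to 5 with 1 library left out. Of all astrocyte calls 53.1% were higher in AM-Allo, and 39.0% under upper-quartile scaling. Genes passing after adjustment went from 1 to 0 without trend or at a minimum mean of 50, 4 under robust variances, 17 with the replicate block, which left the members' count at 1, and 72 without AM-Allo 1. With VST values the change of Pik3cd was -0.0021 relative to Pik3ca and -0.0013 relative to Pik3cb. Upper-quartile scaling gave -0.00080 for Akt2. With 1 library left out, differences crossed 0 for Pik3cd (-0.042 to 0.13), Pik3cd relative to Pik3ca (-0.065 to 0.12) and to Pik3cb (-0.059 to 0.14), Akt2 (-0.0050 to 0.045), Pik3ca (-0.0091 to 0.039), Pik3cb (-0.011 to 0.040), Pik3r1 (-0.032 to 0.018) and Pik3cg (-0.23 to 0.053). The cause of these changes was not tested. Among the 8 members depth limits Pik3cd most, where counting error gave an SD of 0.13 on the log2 scale in astrocytes.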
